A study of Schizosaccharomyces pombe with 2 samples.

Results

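The fission yeast *S. pombe* is normally grown on glucose, yet its genome holds the genes of galactose use. In the standard pathway, α-galactosidase splits melibiose, a disaccharide of galactose and glucose, into its parts. Galactokinase then phosphorylates galactose, a uridylyltransferase exchanges it with the glucose of UDP-glucose, and an epimerase turns UDP-galactose back into UDP-glucose. The same epimerase reaction, run in the other direction, makes the UDP-galactose that cells without external galactose need for the galactose side chains of their glycoproteins. In *S. pombe* the steps of galactose use are encoded by *mel1* (α-galactosidase), *gal1* (galactokinase), *gal7* (galactose-1-phosphate uridylyltransferase) and *gal10* (UDP-glucose 4-epimerase), whereas *uge1* encodes a separate UDP-glucose 4-epimerase.

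These 5 genes were taken by name, as the probe sets whose annotated symbol is exactly 1 of them, and each had 1 probe set of its own. They are 5 of the 2899 genes that could be followed by name on the array. Poly(A)-containing RNA from asynchronously growing *sgo2*Δ cells (strain JP2247) was compared with that from wt cells (strain JK107), with 1 GeneChip Yeast Genome 2.0 array for each. Both strains were *h*- and were grown in rich liquid medium (YES) at 32 °C, and their labels differ in the strain name and in the deletion of *sgo2*, which encodes a shugoshin, a protein of centromeres and subtelomeres. The signal of *sgo2* itself was 2.81 in *sgo2*Δ and 581.5 in wt. The values are scaled signal intensities on a linear scale, and the log2 ratio is that of *sgo2*Δ over wt. A gene was called higher where its ratio was at least 2-fold and its brighter signal reached 100. With 1 array per strain there is no replicate check, and no p-value for any difference is given here. The study marked changes by a change P-value from its array software, which does not measure variation between cultures. The number of arrays limits the precision, and differences between the cultures or arrays cannot be told apart from those between the strains. In RNA from whole cultures, a change in every cell and a change in part of the cells cannot be told apart either.

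In gene order, the members lie in 3 places. According to the assembly ASM294v3, *gal7*, *gal10* and *gal1* stand close together near the right end of chromosome II (*subtel2R*), with 1 protein-coding gene (*tgd1*) between *gal7* and *gal10* and none between *gal10* and *gal1*. Only 11 protein-coding genes follow *gal1* up to the end of the assembled sequence, the last being *tlh2*. The gene *mel1* lies near the right end of chromosome I (*subtel1R*), where 23 protein-coding genes follow it. By contrast, *uge1* is in the interior of chromosome II, with 1022 protein-coding genes on its left and 842 on its right.

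Without Sgo2, each of the 4 subtelomeric genes had at least 2 times its wt signal, and *uge1* did not. The share of all 2805 single-gene probe sets at or above the floor that were called higher was 0.57% (16 of 2805), and the members make up 4 of these 16. The median log2 ratio was 1.72 for the 4 subtelomeric genes and 0.13 for all 2805 probe sets. At 4-fold, 2 of the 5 members were called (*mel1* and *gal10*), against 0.357% of all probe sets (10 of 2805), and at 1.5-fold the same 4 members as at 2-fold were called, against 1.03% (29 of 2805). Genes and probe sets differ in how they hybridize, so only ratios are compared between genes here.

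**Figure D1:**
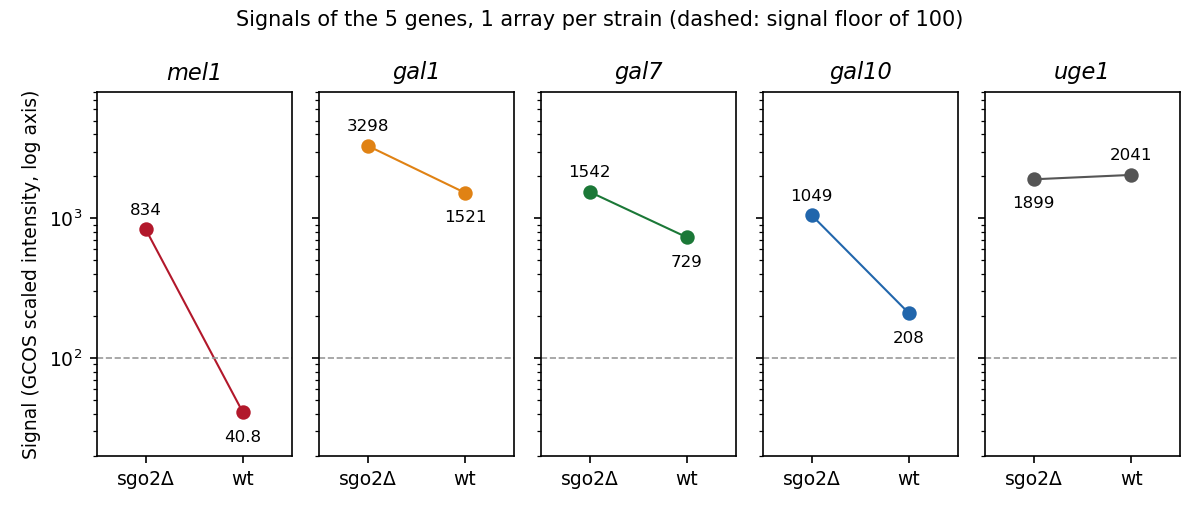
Signal (GCOS scaled intensity, log axis) of each of the 5 genes in *sgo2*Δ and wt cells, with 1 point per array and the signal floor of 100 as a dashed line. *mel1* lies under the floor in wt only, *gal1*, *gal7* and *gal10* lie above it on both arrays with the higher signal in *sgo2*Δ, and *uge1* is nearly level; heights are not comparable between genes.

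Of the 5 genes, *mel1* differed most, also at its lower bound. It is the gene whose product releases galactose from melibiose outside the cell. Its signal was 834.2 in *sgo2*Δ and 40.8 in wt. The wt signal was below the floor and also below that of the brightest of the 17 probe sets for artificial tags, to which no yeast RNA corresponds (47.7 in wt), so *mel1* was not measurably above background in wt. Its fold is therefore a lower bound of at least 8.34-fold against a signal of 100 (log2 3.06), and the log2 ratio of the measured signals was 4.35. By the measured signals this ratio was the highest of the 2805 probe sets, but with every signal under 100 set to 100 *mel1* ranked second, after the enolase gene *eno102* (log2 ratio 3.46). The spread of the 200 single-gene probe sets of nearest mean signal gives a scale for this value: 95% of their log2 ratios lay between -0.40 and 0.65. Of the 200, 1 probe set (of *tlh2*, itself dim in wt) had a measured ratio above the bound of *mel1*.

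Of the genes that act inside the cell, *gal10* stood highest. The product of *gal10* is the epimerase of the cluster, so it shares its enzymatic step with that of *uge1*. Its signal was 1049 in *sgo2*Δ and 208.4 in wt, which is 5.03-fold higher (log2 ratio 2.33), with both signals above the floor. This ratio ranked 8th of 2805, and none of the 200 probe sets of nearest signal, 95% of which lay between -0.21 and 0.46, had a ratio as high.

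The galactokinase gene *gal1* had a signal of 3298 in *sgo2*Δ and 1521 in wt, a 2.17-fold difference (log2 ratio 1.12). The uridylyltransferase gene *gal7* had a signal of 1542 in *sgo2*Δ and 729.4 in wt, a 2.11-fold difference (log2 ratio 1.08). These ratios ranked 13th and 14th, only just beyond the 2-fold threshold. Both lay outside the range that held 95% of the 200 probe sets of nearest signal, which was -0.07 to 0.38 for *gal1* and -0.19 to 0.35 for *gal7*. Relative to the median of all probe sets, which itself lay 0.13 above 0, *gal1* was 1.98-fold and *gal7* 1.94-fold higher, so that neither reached 2-fold after centring. After quantile normalization the values were 1.92-fold and 1.90-fold. Their being called at 2-fold thus depends on the scaling, while their direction was the same under every scaling tried.

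Within the cluster the ratios were unequal. The log2 ratios of *gal1* and *gal7* differed by 0.04, which is less than the SD of the log2 ratios of 200 probe sets of like signal (0.11 for *gal1* and 0.14 for *gal7*). The ratio of *gal10* exceeded that of its direct neighbour *gal1* by 1.21 on the log2 scale (2.32 times) and that of *gal7* by 1.25 (2.38 times), and the SD around *gal10* was 0.22. The ratio of *mel1*, taken at its lower bound, exceeded that of *gal10* by 0.73 and that of *gal1* by 1.94. The SD around *mel1* was wider, at 0.45, so at the bound its lead over *gal10* is less clear than its lead over *gal1*. The order of the ratios was therefore *mel1*, *gal10*, *gal1* and *gal7*, in which the last pair did not differ beyond the spread of genes of like signal. In signal units, the increase over wt was 840.1 for *gal10*, 812.8 for *gal7* and 1777 for *gal1*, but each of these is in the scale of its own probe set.

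**Figure D2:**
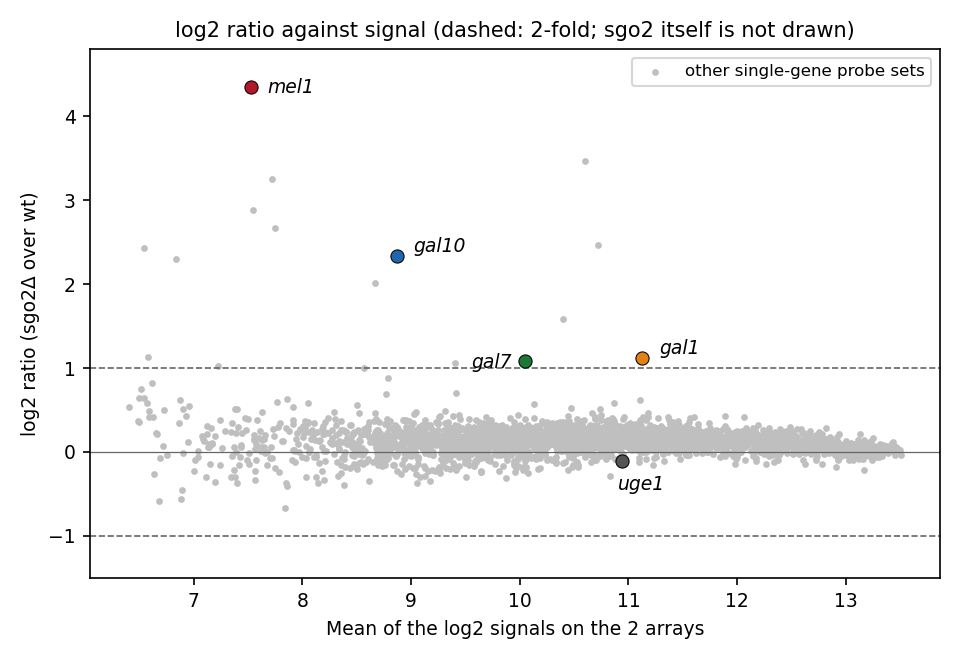
log2 ratio (*sgo2*Δ over wt) against the mean of the log2 signals on both arrays, with 1 grey point for each other single-gene probe set whose brighter signal reached 100, and the 5 genes in colour. By the measured signals, *mel1* lies at the top at 4.35, *gal10* at 2.33, *gal1* and *gal7* just above the dashed 2-fold line, and *uge1* within the band of the other probe sets at -0.10.

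The epimerase gene *uge1* did not share this pattern. Its signal was 1899 in *sgo2*Δ and 2041 in wt, a log2 ratio of -0.10 (0.93 of the wt signal). Both signals lay far above the floor of 100. Set against the other epimerase gene, the log2 ratio of *gal10* exceeded that of *uge1* by 2.43, which corresponds to 5.41 times. For *gal1* and *gal7* the excess over *uge1* was 1.22 and 1.18, and for *mel1* it was at least 3.16. The median log2 ratio of the 4 subtelomeric genes exceeded that of *uge1* by 1.83.

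The ratio of *uge1* lay towards the low side of the array. It ranked 138th from the lowest of the 2805 probe sets, and 198 of the 200 probe sets of nearest signal, 95% of which lay between -0.08 and 0.38, had a higher ratio. *uge1* thus lay just below the range of 95% of these 200, but inside that of all 2805 probe sets (-0.18 to 0.41). Relative to the median of all probe sets its log2 ratio was -0.23 (0.85 of the wt signal). It was thus below 0 before and after centring and was not called lower at 2-fold, while a single array per strain gives no measure of how far a ratio of this size varies between cultures.

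The neighbours of the members were followed as far as a probe set named them, over the 10 protein-coding genes on either side. Of 21 neighbours of the *gal* cluster only 1 was measured. This was *say1*, 6 genes from *gal7* on the side away from the telomere, named for a sterol deacetylase of *S. cerevisiae*. Its signal was 818.4 in *sgo2*Δ and 203.2 in wt, 4.03-fold higher (log2 ratio 2.01). Thus all 4 genes measured in this stretch were at least 2-fold higher, with *gal10* highest, *say1* next and *gal1* and *gal7* lower. For none of the first 10 protein-coding genes that follow *gal1* towards the telomere, nor for *tgd1*, was a single-gene probe set with a signal named. The 2062 probe sets that the annotation left unnamed were not used, so such genes may still be on the array. The last gene, *tlh2*, lies beyond this window. Of its probe sets, 1 that can match several transcripts and was dim in wt had a log2 ratio of 3.25. Another (1.67) was under 100 on both arrays.

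Next to *mel1*, 3 of 20 neighbours were measured. Adjacent to it on the side away from the telomere is *pcm2*, which encodes a protein-L-isoaspartate methyltransferase. Its signal was 507.1 in *sgo2*Δ and 68.7 in wt, at least 5.07-fold higher against a signal of 100 (log2 ratio 2.88 by the measured signals). At 3 and 4 genes from *mel1* on the same side lie the permease genes *put4* and *cat1*. The signal of *put4* was 1769 in *sgo2*Δ and 1474 in wt (log2 ratio 0.26), and that of *cat1* was 3017 in *sgo2*Δ and 2398 in wt (log2 ratio 0.33). Neither was called, so called and uncalled genes lay within 4 gene positions of each other. Around *uge1*, 14 of 20 neighbours had a probe set and 13 reached a signal of 100. None of these was called, their log2 ratios ran from -0.15 (*psm1*) to 0.23 (*slu7*), and their median was 0.11. The ratio of *uge1* (-0.10) was inside this range, with *ish1* (-0.12) and *psm1* below it.

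**Figure D3:**
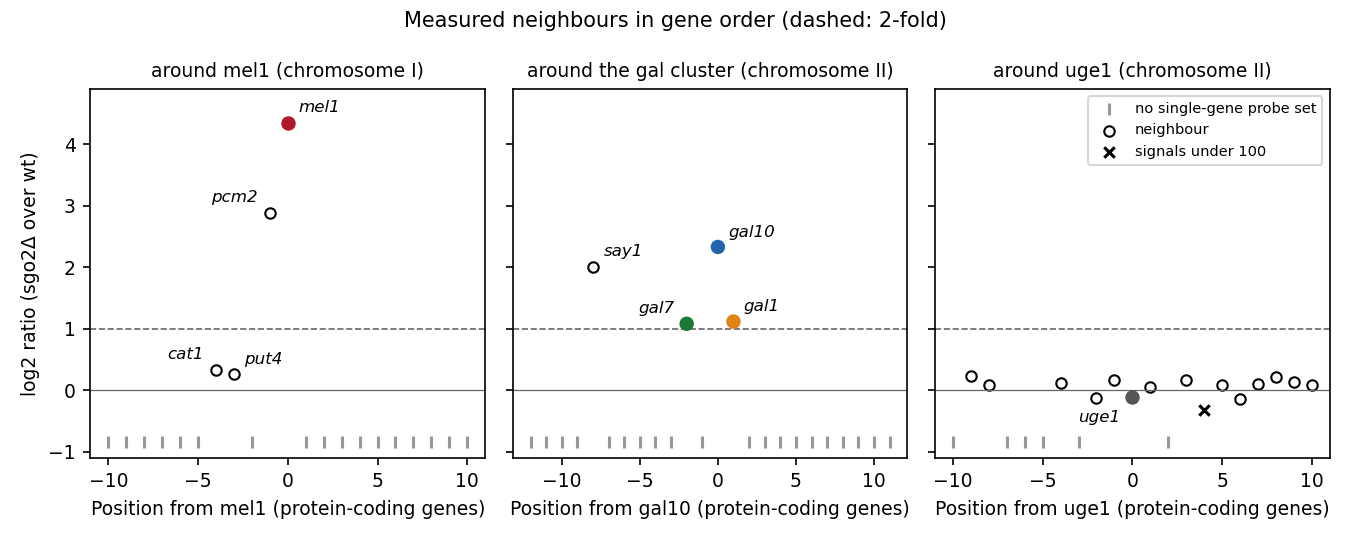
log2 ratio (*sgo2*Δ over wt) of the members (filled) and of measured neighbours (open) against their position in protein-coding gene order. A cross marks a neighbour with both signals under 100. Tick marks show genes for which no single-gene probe set with a signal was named. Around *mel1*, *pcm2* (2.88) lay above 2-fold while *put4* (0.26) and *cat1* (0.33) did not, *say1* (2.01) stood with the *gal* genes, and the genes around *uge1* ran from -0.15 to 0.23 apart from the dim *spo5*.

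Genes of the later use of galactose in glycans were near the median of the array. Of 17 listed genes of UDP-galactose transport, galactose transfer and the pyruvylation of galactose residues, 12 had a probe set and reached the floor, and 0 were called in either direction. Of all 2805 probe sets, 0.57% were called higher and 1 was called lower. The list had a median of 0.06 on the log2 scale, against 0.13 over all probe sets. The Golgi UDP-galactose transporter gene *gms1* had a signal of 2226 in *sgo2*Δ and 2064 in wt (log2 ratio 0.11). The galactosyltransferase gene *gma12* had a signal of 2982 in *sgo2*Δ and 2914 in wt (log2 ratio 0.03). The ratio farthest from 0 was that of *gmh1*, also a galactosyltransferase gene (signal 234.3 in *sgo2*Δ and 168.2 in wt, log2 ratio 0.48), followed by *hut1*, a UDP-galactose transporter gene (0.23). The lowest was *pvg5* (-0.14), of a group of genes needed for pyruvate on galactose residues. Thus *uge1* and the 12 measured genes of this list all stayed within 1.5-fold.

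Few of the genes feeding sugar into the same pools could be followed. Of 5 genes of sugar phosphate and UDP-glucose supply, 3 were measured and none was called, with log2 ratios of 0.12 for the hexokinase gene *hxk1*, 0.06 for *hxk2* and -0.03 for the glucose-6-phosphate isomerase gene *pgi1*. No single-gene probe set with a signal was named for *fyu1* or *pgm1*. With 0.57% of all 2805 probe sets called higher, no call among so few genes is the usual outcome. Other hydrolases of sugars had log2 ratios far below that of *mel1*. Of 8 listed, 6 were measured and 0 were called, with a median of 0.12 and a range from -0.10 (the trehalase gene *ntp1*) to 0.35 (the α-amylase homologue gene *aah4*), next to which stood the maltase gene *mal1* (0.26). The invertase gene *inv1* is, like *mel1*, the gene of a secreted enzyme that splits a disaccharide. Its signal was just above the floor on both arrays, at 101.0 in *sgo2*Δ and 106.1 in wt (log2 ratio -0.07).

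Glucose represses genes for other sugars in yeasts, and YES medium contains glucose. Of 9 genes of glucose repression and its release, all 9 were measured and 0 were called, with a median log2 ratio of 0.02. The repressor gene *scr1* had a signal of 553.0 in *sgo2*Δ and 493.0 in wt (log2 ratio 0.17), and the corepressor genes *tup11* and *tup12* had log2 ratios of 0.23 and -0.31. That of *tup12* was the farthest from 0 in the list (signal 846.8 in *sgo2*Δ and 1046 in wt). The protein kinase A gene *pka1* stood at -0.24. The fructose-1,6-bisphosphatase gene *fbp1*, the standard gene repressed by glucose, had a signal of 200.4 in *sgo2*Δ and 198.5 in wt (log2 ratio 0.01). These are RNA levels, and a part of glucose repression in the ratios of the members was not tested. These lists are described by counts only, and no test of a list was made.

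**Figure D4:**
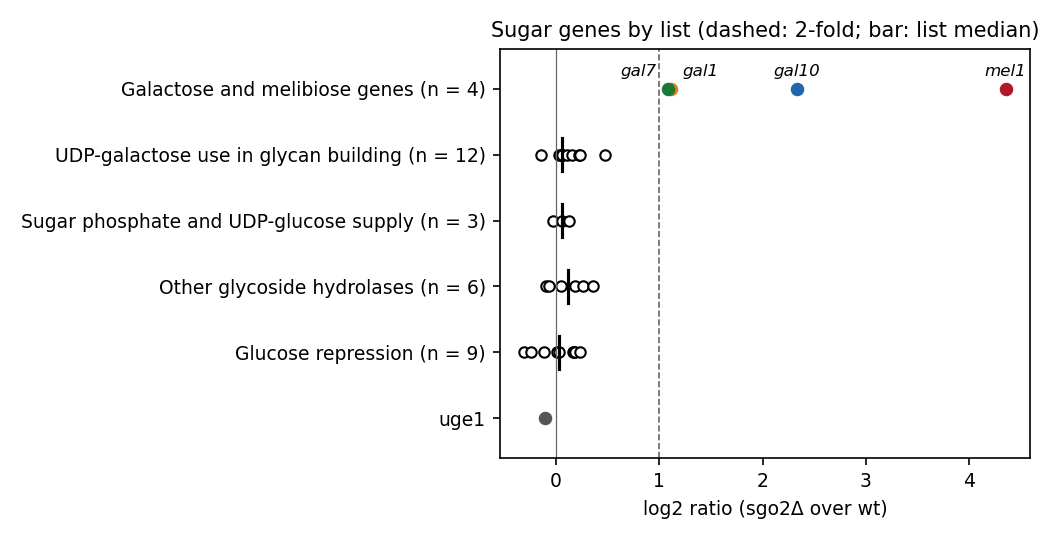
log2 ratio (*sgo2*Δ over wt) of the 4 galactose and melibiose genes, of the measured genes of the 4 lists (open circles, with the list median as a bar) and of *uge1*. The 4 subtelomeric genes lie to the right of the dashed 2-fold line, and all 30 genes of the lists lie between -0.31 and 0.48.

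Genes with the most similar ratios over the 2 arrays were taken as the 2 nearest in log2 ratio. Nearest to *mel1* were *eno102* (log2 ratio 3.46, signal 5151 in *sgo2*Δ and 466.7 in wt) and 1 probe set of the helicase gene *tlh2* (3.25), taken by the measured signal of *mel1*, which was not above background in wt. At its bound of 3.06, *mel1* lay 0.40 below *eno102*. The *tlh2* probe set can match several transcripts and was dim in wt (68.4, against 651.8 in *sgo2*Δ). Nearest to *gal10* were *ght7*, a hexose transporter gene, and *grt1*, at log2 ratios of 2.31 and 2.43. Both were under a signal of 100 in wt, where they were 51.5 and 40.1, so their folds are lower bounds of at least 2.55-fold and 2.16-fold. Nearest to *gal1* and to *gal7* were *mmf2* (2.08-fold, 975.6 in *sgo2*Δ and 468.6 in wt) and *str3*, a siderophore transporter gene (141.6 in *sgo2*Δ and 64.9 in wt, at least 1.42-fold). Nearest to *uge1* were *alp14* and *rds1*, each at -0.10. With 2 arrays, such likeness is a match of 1 number per gene.

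Some control probe sets also differed between the arrays. Controls added for the hybridization stood at a median log2 ratio of 0.10 (9 probe sets), whereas the poly(A) controls, bacterial transcripts, stood at 0.51 (12 probe sets, all above 0). Those for the large and small ribosomal RNAs were at 0.54 (6 probe sets), and those for the actin gene *act1* were nearly level at 0.03 (3 probe sets). All 4 subtelomeric genes had ratios above these medians, while the range of single control ratios was not taken. The poly(A) controls included dim probe sets, with lowest signals of 28.6 in *sgo2*Δ and 22.7 in wt. With the poly(A) controls as the zero, the log2 ratio was 3.84 for *mel1*, 1.82 for *gal10*, 0.60 for *gal1*, 0.57 for *gal7* and -0.62 for *uge1*, and the median of all single-gene probe sets was -0.39. The part of this shift in the ratios of the 5 genes was not tested.

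**Figure D5:**
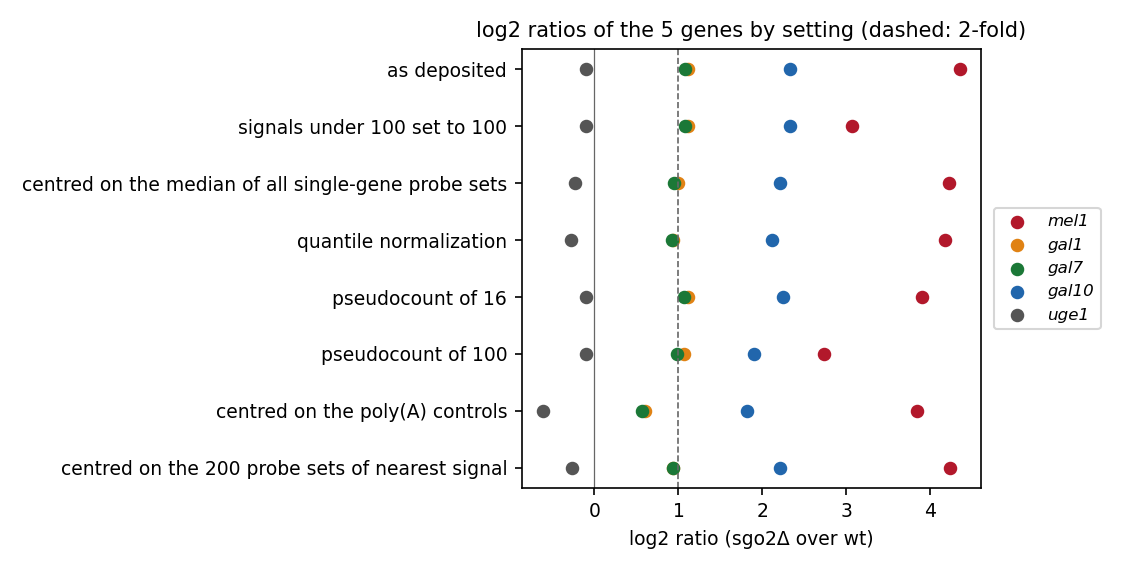
log2 ratio (*sgo2*Δ over wt) of the 5 genes with the signals as deposited and under 7 other settings. *mel1* and *gal10* stayed to the right of the dashed 2-fold line in each, *gal1* and *gal7* lay on either side of it, and *uge1* lay below 0 in each.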

How the data were processed

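According to the study's methods, poly(A)-containing RNA (0.3 μg) was labelled with biotin and hybridized to GeneChip Yeast Genome 2.0 arrays, and the authors scanned and scaled them in GCOS 1.4 with default settings and masking of *S. cerevisiae* probe sets. The table deposited by the authors holds 1 intensity per probe set and array, not on a log scale. The scaling target is not given in the sources used here. Both column medians are 0, because 5748 of 10928 rows are listed at 0. Gene names came from GEO's platform annotation, with symbols updated by gene identifier to the gene table of ASM294v3 (2914 of 2917 single-gene probe sets matched). A further 20 named several genes, and 2062 named none in that annotation and were left out. Gene order is that of protein-coding genes in this table. No build is given with the array values, so no coordinates are printed, and protein and promoter sequences were not analysed here.

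The log2 ratio is log2 of the *sgo2*Δ signal minus log2 of the wt signal, without a pseudocount. The floor was a signal of 100, and dim signals gave bounds against it. The spread of single values was taken from the 200 single-gene probe sets nearest in mean log2 signal. Genes named are the members, *sgo2*, listed genes (those called, otherwise the 2 farthest from 0, and others to describe a role), measured neighbours within 10 genes, and the 2 genes nearest in log2 ratio. The members, lists and tests were chosen with earlier results of these data known. Alternatives were other floors (50, 200 or none), folds (1.5 and 4), pseudocounts (16 and 100) and scalings. The rule for calls was tested on simulated data with known folds. The simulation used genes at or above the floor in wt and no fold near 2, so it does not bear on *mel1*, *gal1* or *gal7*. It also does not cover differences between cultures. Python 3.11.15, numpy 2.4.6, pandas 2.3.3 and matplotlib 3.10.9 were used.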

Additional observations from a re-analysis of the deposited data

How the results depend on the processing

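No paired analysis was possible because only 1 array was hybridized per strain, and no replicate could be left out. All 5 genes kept their direction under every setting. Of 54 values under an alternative, 31 stayed within 1 SD of genes of like signal (or within 1.5 times for counts) and 23 did not. Some of the 31 could not move. Setting signals under 100 to 100 can alter only *mel1* among the 5 genes. Other floors could not change the count, because the brighter signal of each member exceeded 200. The tally is therefore not a measure of robustness. The number of members called higher was 2 rather than 4 at 4-fold, after centring on all single-gene probe sets, with quantile normalization and, both chosen after seeing the data, after centring on the poly(A) controls or on the 200 probe sets of nearest signal. It was 3 with a pseudocount of 100. The share of all probe sets called was 0.357% at 4-fold (10 of 2805). That share was not counted under the other scalings or with a pseudocount, so these member counts have no background beside them. Centring moved *gal1* to 0.99 and *uge1* to -0.23, quantile normalization moved *gal1*, *gal7* and *uge1* to 0.94, 0.93 and -0.29, and these settings shift all genes by construction (the median of all single-gene probe sets by -0.13 and -0.15). Centring on probe sets of nearest signal gave 0.94 for both *gal1* and *gal7* and -0.27 for *uge1*. Centring on the poly(A) controls, which lowers every gene by 0.51, gave 3.84 for *mel1*, 1.82 for *gal10*, 0.60 for *gal1*, 0.57 for *gal7* and -0.62 for *uge1*. For *mel1* the log2 ratio was 3.06 with signals under 100 set to 100 and 2.73 with a pseudocount of 100, which gave 1.90 for *gal10*. The median of the 4 subtelomeric genes exceeded *uge1* by 1.58 with that pseudocount and by 1.22 without *mel1*, instead of 1.83. Signal over background limits *mel1* in wt.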
